A study of Mus musculus with 10 samples.

Results

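Inhibitory and Fc receptors of B lineage cells were examined in germinal centre-derived plasma cells of the mouse spleen, as 10 genes chosen by name: Fcmr, Fcgr2b, Btla, Cd200, Siglecg, Lair1, Pirb, Lilrb4a, Cd300a and Tigit. The Ensembl identifiers of the deposited tables were matched to GENCODE release M21 on GRCm38, which gave rows for 9 of the 10 genes among 47719 identifiers in all. Lilrb4a was not analysed here. RNA was sequenced in 5 libraries of IgM plasma cells and 5 libraries of IgG1 plasma cells. In both groups the cells came from congenically marked donor B cells carrying S1PR2-CreERT2, Ai14 and B1-8germ, moved into wild-type hosts. S1PR2-CreERT2 is a tamoxifen-inducible Cre under the control of S1pr2, a receptor gene active in germinal centre B cells, and Ai14 switches on tdTomato after Cre has acted. B1-8germ is an unmutated heavy chain that gives binding to the hapten NP with a lambda light chain. The hosts, which keep their own B cells, were immunized with NP-CGG in alum on day 0 and given tamoxifen on days 5 and 6, and tdTomato+ donor plasma cells of each isotype were sorted on day 10. No label ties a library to an animal, and the p-values below therefore cover no more than library-to-library spread, which may be technical.

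Most of these receptors belong to the immunoglobulin superfamily. Many inhibitory receptors carry tyrosine motifs (ITIMs) in their cytoplasmic tails which, once phosphorylated by kinases such as Lyn, recruit the phosphatases SHP-1 (Ptpn6), SHP-2 (Ptpn11) or SHIP-1 (Inpp5d) and so dampen signals from the B cell receptor. Fc receptors instead sense antibody: Fcmr binds the Fc part of IgM, and Fcgr2b binds IgG in immune complexes and is the inhibitory Fc gamma receptor of B cells. In plasma cells, crosslinking of Fcgr2b by immune complexes is known to be able to trigger cell death.

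In every library the labelled isotype had the higher of the Ighm and Ighg1 transcripts. The Ighg1 level in IgM libraries was well above the Ighm level in IgG1 libraries, and its source was not tested. Ighm ran from 81237 to 90279 FPKM in IgM libraries and from 1110 to 1306 FPKM in IgG1 libraries, and Ighg1 from 9465 to 19243 FPKM in IgM libraries and from 86880.3 to 107616 FPKM in IgG1 libraries (FPKM: fragments scaled by transcript length and sequencing depth). All 8 listed plasma cell markers were tested, with Jchain and Sdc1 among the 7 higher in IgM and Xbp1 the 1 lower in IgM (20.2% of all tested genes were higher and 18.1% lower), while the B cell factor Pax5 stayed at a mean of 0.0704 FPKM in IgM and 0.0600 FPKM in IgG1 libraries. Depth, read off the spacing of the lowest values, was about 26110000 to 30400000 fragments in IgM libraries and 25690000 to 37110000 fragments in IgG1 libraries. At that depth 1 fragment on 1 kilobase of transcript is worth 0.0329 to 0.0383 FPKM in IgM libraries and 0.0269 to 0.0389 FPKM in IgG1 libraries. IgM libraries listed 15121 to 15800 genes above 0, and IgG1 libraries 13286 to 13961.

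Fcmr, Btla and Cd200 were higher in IgM plasma cells by the widest margins, Fcgr2b and Tigit were higher by less, and Siglecg was lower. The test, limma on log2(FPKM + 1), covered the 9900 genes that averaged 1 FPKM or more across the 10 libraries. Differences are IgM minus IgG1 on that scale, which understates the change of low genes. Of the 9 receptors with a row, 6 reached that mean, of which 5 passed as higher in IgM and 1 as lower in IgM (Benjamini-Hochberg adjusted p under 0.05), where 20.2% of all tested genes passed as higher in IgM, 18.1% as lower and 38.3% in either direction. Btla and Cd200 averaged under 1 FPKM in IgG1 libraries and so entered the test through their IgM level. A count, a median or a share without overlap over the 6 genes is therefore no support for a direction of the family. The median log2 difference of the 6 was 1.20, beside 0.05 over all tested genes. Values of 4 of the 6 did not overlap between the groups (26.3% of all tested genes), 3 with every IgM library above (13.3% of all tested genes) and 1 with every IgM library below (13.1%). Lair1, Pirb and Cd300a were under that mean. In sorted bulk RNA, fewer cells with a transcript and less of it per cell cannot be told apart.

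**Figure D1:**
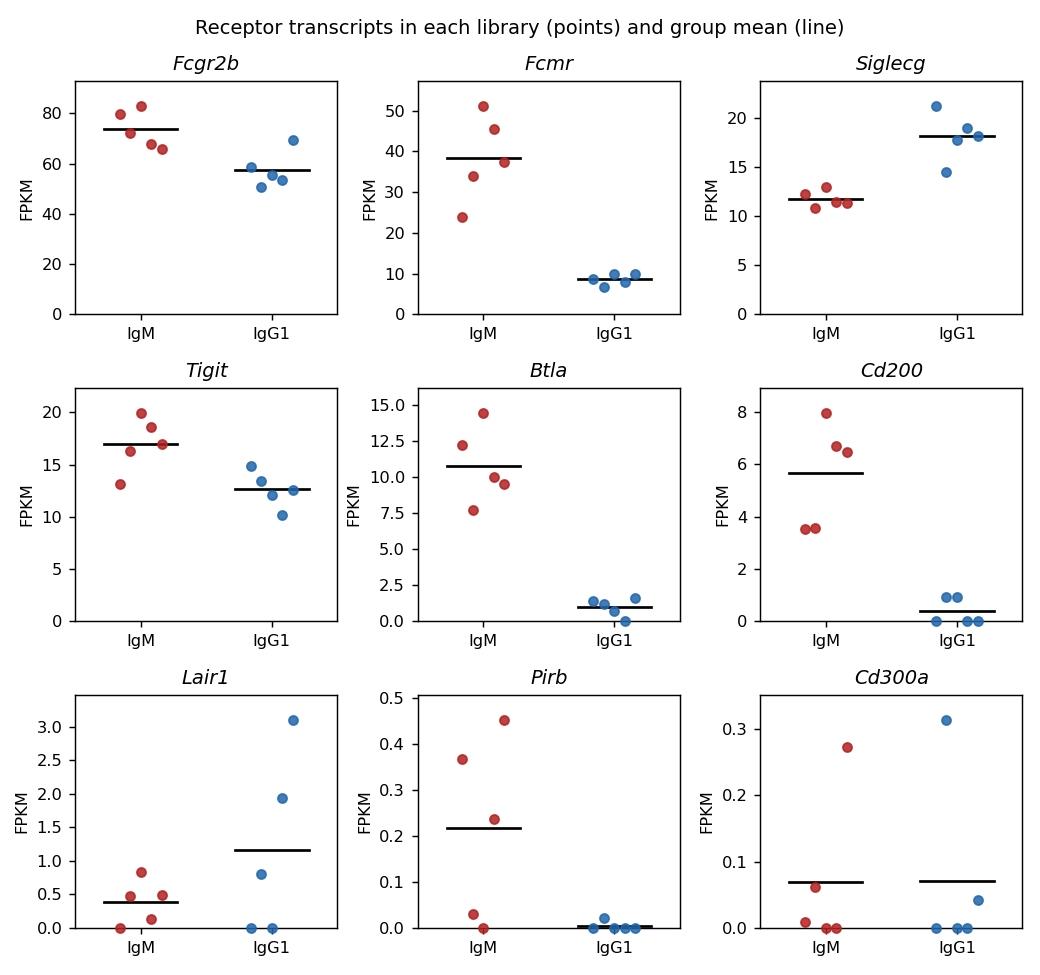
FPKM (vertical axis, linear, a separate scale per gene) of the 9 receptor genes in each of the 5 IgM libraries (red, left) and 5 IgG1 libraries (blue, right), with a black line at the group mean. Fcmr, Btla and Cd200 points of the IgM libraries all lie above those of the IgG1 libraries, those of Siglecg all lie below, and Lair1, Pirb and Cd300a stay near 0 in most libraries.

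The stretches of DNA before the start sites of the 3 receptors with the widest differences and of Siglecg, the receptor that went the other way, are shown because the first 3 moved together between the groups. They come from RefSeq on GRCm38.p6, which held 9 of the 10 receptors, run 5′ to 3′ on the strand of the gene, and cover up to 250 bases before the RefSeq start, with stretches that GENCODE places more than 30 bases inside the gene left out. Capitals mark matches, on either strand, to an E-box (CANNTG), the ETS core GGAAGT or an EGR site (GCGNGGGCG). No match to the octamer ATTTGCAT, the AP-1 site TGANTCA or an IRF pair (GAAA, NN, GAAA) was found in the 250-base windows of the 9 receptors.
Fcmr, chr1:130865527-130865668, plus strand: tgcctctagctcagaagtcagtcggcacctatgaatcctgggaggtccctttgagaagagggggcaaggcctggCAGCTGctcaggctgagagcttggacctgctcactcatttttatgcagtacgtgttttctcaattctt
Btla, chr16:45224087-45224336, plus strand: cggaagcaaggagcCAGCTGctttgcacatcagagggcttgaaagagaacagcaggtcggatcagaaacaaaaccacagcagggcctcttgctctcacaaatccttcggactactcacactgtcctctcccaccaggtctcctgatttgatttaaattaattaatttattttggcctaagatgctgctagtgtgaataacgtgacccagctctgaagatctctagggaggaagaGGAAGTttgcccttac
Cd200, chr16:45409054-45409303, minus strand: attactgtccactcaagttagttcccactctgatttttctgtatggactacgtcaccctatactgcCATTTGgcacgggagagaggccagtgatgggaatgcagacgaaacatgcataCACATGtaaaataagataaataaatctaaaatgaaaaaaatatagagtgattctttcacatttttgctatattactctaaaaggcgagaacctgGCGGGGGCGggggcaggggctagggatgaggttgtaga
Siglecg, chr7:43407989-43408203, plus strand: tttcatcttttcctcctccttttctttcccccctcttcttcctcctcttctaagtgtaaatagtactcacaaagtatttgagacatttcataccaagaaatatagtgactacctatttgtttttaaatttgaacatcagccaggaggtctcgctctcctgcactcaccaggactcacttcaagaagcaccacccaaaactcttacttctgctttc
An E-box is in 66.2% of 32851 RefSeq promoter windows of 250 bases and before 8 of the 9 receptors, whatever their difference, Siglecg being the exception. The ETS core before Btla, also found before Fcgr2b and Pirb, is in 19.7% of windows, and the EGR site before Cd200, 38 bases before its start, is in 4.70%. A match is a run of letters and not a measured binding site.

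Fcmr (ENSMUSG00000042474, chromosome 1, 130865669 to 130880791, plus strand, GRCm38), the Fc receptor for IgM, was 4.45 times as high in IgM as in IgG1 plasma cells by the ratio of means. IgM replicates 1 to 5 held 23.8, 33.9, 51.2, 45.5 and 37.4 FPKM, against 8.56, 6.74, 9.89, 8.00 and 9.92 FPKM in IgG1 replicates 1 to 5. The lowest IgM library, replicate 1, still stood above the highest IgG1 library. The means were 38.4 ± 10.6 FPKM in IgM libraries, against 8.62 ± 1.35 FPKM in IgG1 libraries (SD, n = 5 each), with a log2 difference of 2.00 (SE 0.17, 95% interval 1.64 to 2.36, limma adjusted p = 7.53e-08).

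Fcgr2b (ENSMUSG00000026656, chromosome 1, 170958617 to 170976547, minus strand), the inhibitory IgG receptor, was the most abundant of the receptors in every library and differed far less. Its values were 79.7, 72.1, 83.0, 67.6 and 65.9 FPKM in IgM replicates 1 to 5, against 58.6, 50.8, 55.6, 53.3 and 69.6 FPKM in IgG1 replicates 1 to 5. The groups overlapped, since IgG1 replicate 5 lay above the 2 lowest IgM libraries. The means were 73.7 ± 7.45 FPKM in IgM libraries, against 57.6 ± 7.31 FPKM in IgG1 libraries (SD, n = 5 each), a ratio of 1.28 and a log2 difference of 0.35 (SE 0.09, 95% interval 0.16 to 0.55, limma adjusted p = 0.00591). The activating receptor gene Fcgr3 averaged 0.163 FPKM in IgM libraries, against 0.193 FPKM in IgG1 libraries. Of the 50-base windows of the longest Fcgr2b transcript, 12.5% also occur in transcripts of other annotated genes, so a part of its reads can be shared.

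Btla (ENSMUSG00000052013, chromosome 16, 45224315 to 45257670, plus strand), an inhibitory receptor that binds the TNF receptor family member HVEM and recruits SHP-1 and SHP-2, had the widest log2 difference of the tested receptors at the pseudocount of 1. It stood at 12.3, 7.71, 14.5, 10.0 and 9.56 FPKM in IgM replicates 1 to 5, against 1.41, 1.17, 0.720, 0.0194 and 1.58 FPKM in IgG1 replicates 1 to 5. Every IgM library was well above every IgG1 library, and IgG1 replicate 4 was close to 0. The means were 10.8 ± 2.62 FPKM in IgM libraries, against 0.981 ± 0.627 FPKM in IgG1 libraries (SD, n = 5 each), a ratio of 11.02 and a log2 difference of 2.62 (SE 0.25, 95% interval 2.09 to 3.15, limma adjusted p = 2.31e-07). The size of its log2 difference moved with the pseudocount, to 3.75 with 0.1 and 1.39 with 5. The gene of its ligand, Tnfrsf14 (HVEM), averaged 0.404 FPKM in IgM libraries, against 0.508 FPKM in IgG1 libraries and was not tested.

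Cd200 (ENSMUSG00000022661, chromosome 16, 45382135 to 45409053, minus strand) encodes a surface glycoprotein that engages the inhibitory receptor CD200R on myeloid cells, so here the B lineage cell carries the ligand. It was at 3.53, 3.57, 7.98, 6.71 and 6.48 FPKM in IgM replicates 1 to 5, against 0.932 and 0.938 FPKM in IgG1 replicates 2 and 3, and it was listed at 0 in IgG1 replicates 1, 4 and 5. The groups did not overlap, and the IgM libraries fell into a lower pair and a higher trio. The log2 difference was 2.30 (SE 0.28, 95% interval 1.70 to 2.89, limma adjusted p = 4.40e-06), which moved to 4.42 with a pseudocount of 0.1, above that of Btla, and to 0.97 with 5. With listed zeros taken as 0, the ratio of its means was 15.1, also above that of Btla. None of 12 widely expressed genes checked, such as Actb and Tbp, was at 0 in a library. Their lowest value was 6.47 FPKM, for Polr2a. At such levels they cannot show whether the zeros of Cd200 reflect missed transcripts. Cd200r1, which encodes the receptor of CD200, averaged 0.250 FPKM in IgM libraries, against 0.367 FPKM in IgG1 libraries.

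Siglecg (ENSMUSG00000030468, chromosome 7, 43408204 to 43418358, plus strand), a sialic acid-binding lectin that restrains B cell receptor signalling, was lower in IgM than in IgG1 plasma cells. It stood at 12.2, 10.9, 13.0, 11.4 and 11.3 FPKM in IgM replicates 1 to 5, against 21.2, 14.5, 17.8, 19.0 and 18.2 FPKM in IgG1 replicates 1 to 5. Every IgM library was below every IgG1 library. The means were 11.8 ± 0.843 FPKM in IgM libraries, against 18.2 ± 2.43 FPKM in IgG1 libraries (SD, n = 5 each), with a log2 difference of -0.58 (SE 0.13, 95% interval -0.84 to -0.31, limma adjusted p = 0.00146). The ratio of Siglecg to Fcgr2b within a library, which no scaling of libraries can change, ran from 0.151 to 0.172 in IgM and from 0.261 to 0.362 in IgG1 libraries.

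Tigit (ENSMUSG00000071552, chromosome 16, 43648867 to 43664146, minus strand), a receptor best known from T and NK cells that binds the poliovirus receptor Pvr and nectins, was measured at moderate levels in both groups. It stood at 13.1, 16.3, 20.0, 18.6 and 17.0 FPKM in IgM replicates 1 to 5, against 14.9, 13.5, 12.1, 10.2 and 12.6 FPKM in IgG1 replicates 1 to 5. The groups overlapped, with IgM replicate 1 inside the range of the IgG1 libraries. The means were 17.0 ± 2.60 FPKM in IgM libraries, against 12.6 ± 1.73 FPKM in IgG1 libraries (SD, n = 5 each), a ratio of 1.35 and a log2 difference of 0.40 (SE 0.14, 95% interval 0.10 to 0.69, limma adjusted p = 0.0317). The call was lost when IgM replicate 3, 4 or 5, or IgG1 replicate 3 or 4, was left out (adjusted p = 0.0541 to 0.0829), without IgG1 replicates 4 and 5 together (0.152), without a filter (0.101), under quantile normalization (0.105) and with a replicate block (0.0579). Over all 23 alternatives its adjusted p ran from 0.00835 to 0.152.

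**Figure D2:**
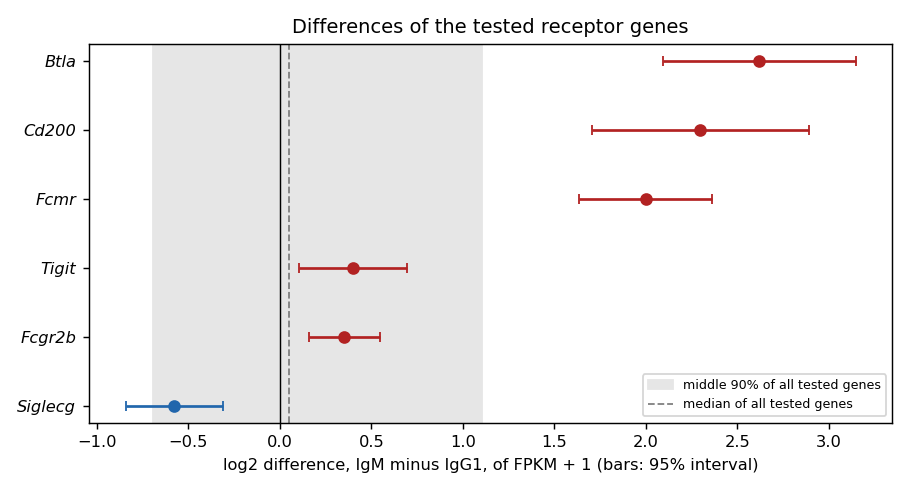
Log2 difference of FPKM + 1, IgM minus IgG1 (horizontal axis), of the 6 tested receptor genes, with 95% intervals from limma, the middle 90% of all tested genes in grey and their median as a dashed line. Btla, Cd200 and Fcmr lie to the right of the grey band, which ends at 1.11, whereas Tigit, Fcgr2b and Siglecg lie inside it.

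T cell markers were read beside Btla, Cd200 and Tigit, which T cells also express. The summed FPKM of the 9 listed T cell genes ran from 40.3 to 58.9 in IgM and from 31.8 to 38.4 in IgG1 libraries, most of it from Cd28, which averaged 45.9 ± 7.43 FPKM in IgM libraries, against 32.2 ± 2.04 FPKM in IgG1 libraries (SD, n = 5 each). Of the CD3 chain genes, which define T cells, Cd3e averaged 0.0239 FPKM in IgM libraries, against 0.00973 FPKM in IgG1 libraries, Cd3g 0.372 FPKM in IgM libraries (up to 1.22), against 0.00744 FPKM in IgG1 libraries, and Cd3d 0.209 FPKM in IgM libraries (up to 0.947), against 0 in each IgG1 library. Cd8a reached 0.114 FPKM in IgM libraries and was listed at 0 in each IgG1 library. Trac, the T cell receptor alpha constant gene, was higher in IgM cells, with 1.38 to 3.91 FPKM against 0 to 0.696 FPKM in IgG1 cells (log2 difference 1.47, limma adjusted p = 3.41e-04), while Cd4 was lower in IgM cells (log2 difference -1.12, adjusted p = 0.00458). Of the list 3 genes were tested, of which 2 passed as higher in IgM and 1 as lower in IgM, where 38.3% of all tested genes passed in either direction. Trac and Cd4 reached the mean needed for the test only through the group where each is high. The part of these transcripts in the receptor differences was not tested.

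Lair1, Pirb and Cd300a, receptors with ITIMs that are common on myeloid cells, averaged too little for the test. Lair1 (ENSMUSG00000055541, chromosome 7, 4003402 to 4063204, minus strand), which binds collagens, was at 0, 0.480, 0.827, 0.127 and 0.494 FPKM in IgM replicates 1 to 5, against 0, 0.797, 0, 1.94 and 3.11 FPKM in IgG1 replicates 1 to 5. The groups overlapped, and IgG1 replicates 4 and 5 held the 2 highest values. Pirb (ENSMUSG00000058818, chromosome 7, 3711409 to 3720391, minus strand), which binds MHC class I molecules, reached 0.452 FPKM in IgM replicate 5 and was listed at 0 in IgM replicate 3, against 0.0213 FPKM in IgG1 replicate 2 and 0 in the other IgG1 libraries. Of its 50-base windows, 37.3% also occur in other annotated genes, so its values are uncertain. Cd300a (ENSMUSG00000034652, chromosome 11, 114890041 to 114904654, plus strand), which binds phosphatidylserine, reached 0.272 FPKM in IgM and 0.314 FPKM in IgG1 libraries and was listed at 0 in 2 IgM and 3 IgG1 libraries. In a fit without a filter on low values, the log2 differences were -0.45 for Lair1 (95% interval -1.37 to 0.47, limma adjusted p = 0.495), 0.26 for Pirb (0.03 to 0.49, adjusted p = 0.165) and near 0 for Cd300a (-0.21 to 0.21, adjusted p = 0.994). None of these 3 differences passed. The listed macrophage and monocyte markers summed to 32.6 to 40.7 FPKM in IgM and 17.7 to 22.7 FPKM in IgG1 libraries, of which Cd68, a lysosomal protein gene, gave a mean of 31.2 FPKM in IgM libraries, against 12.9 FPKM in IgG1 libraries. Of that list of 10 genes, 4 were tested, and Cd68 was the 1 that passed, beside 20.2% of all tested genes higher in IgM. Adgre1 and C1qb averaged slightly more in IgM libraries, at 0.188 and 2.14 FPKM, against 0.168 and 1.99 FPKM in IgG1 libraries, although the log2 difference of C1qb was -0.09 (adjusted p = 0.856). The other 7 averaged less in IgM libraries, among them Csf1r with 0.231 FPKM in IgM libraries, against 0.582 FPKM in IgG1 libraries, C1qa with 0.476 FPKM in IgM libraries, against 0.987 FPKM in IgG1 libraries, and Lyz2 with 1.09 FPKM in IgM libraries, against 1.62 FPKM in IgG1 libraries (log2 difference -0.37, adjusted p = 0.328). The part of myeloid transcripts in the values of the 3 receptors was not tested. Of other cell types, the neutrophil genes S100a8 and S100a9 were listed at 0 in every library, and so was the dendritic cell gene Itgax. Other genes of these lists were present. The dendritic cell gene Flt3 averaged 2.29 FPKM in IgM libraries, against 2.31 FPKM in IgG1 libraries. The neutrophil gene Ly6g reached 0.659 FPKM in IgM and 1.24 FPKM in IgG1 libraries. The NK cell gene Prf1 averaged 1.24 FPKM in IgM libraries, against 1.99 FPKM in IgG1 libraries. Listed erythroid genes summed to 0.0764 to 4.78 FPKM in IgM and 0.440 to 3.17 FPKM in IgG1 libraries.

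The order of levels differed between the groups, on the FPKM scale, which is per length of transcript. In IgM cells it ran Fcgr2b, Fcmr, Tigit, Siglecg, Btla, Cd200, Lair1, Pirb and Cd300a, and the libraries of neighbours overlapped for Siglecg and Btla, for Btla and Cd200 and among the last 3. In IgG1 cells it ran Fcgr2b, Siglecg, Tigit, Fcmr, Lair1, Btla, Cd200, Cd300a and Pirb, and the libraries overlapped for Siglecg and Tigit and between each pair of neighbours from Lair1 down. Fcgr2b took 42.2% to 54.9% of the summed FPKM of the 9 receptors in IgM libraries and 56.0% to 60.5% in IgG1 libraries. The ratio of Tigit to Fcgr2b, in contrast, ran from 0.165 to 0.276 in IgM and from 0.180 to 0.265 in IgG1 libraries, so that these receptors kept overlapping proportions.

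Tigit, Btla and Cd200 lie on one stretch of chromosome 16, from 43648867 to 45409053, with 124 kilobases between Btla and Cd200. Of 31 annotated genes with a row in the stretch, 13 were tested, and beside the 3 receptors 4 of the other 10 were higher in IgM and 0 were lower, with 6 that did not pass (20.2% of all tested genes were higher and 18.1% lower). The other 10 had log2 differences from -0.22 to 0.65, all below those of Btla and Cd200. Atg3, an autophagy gene, had a log2 difference of 0.34 (adjusted p = 0.0135), and Naa50, an acetyltransferase gene, one of -0.22 (adjusted p = 0.0734). Pirb and Lair1 lie 283 kilobases apart on chromosome 7.

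**Figure D3:**
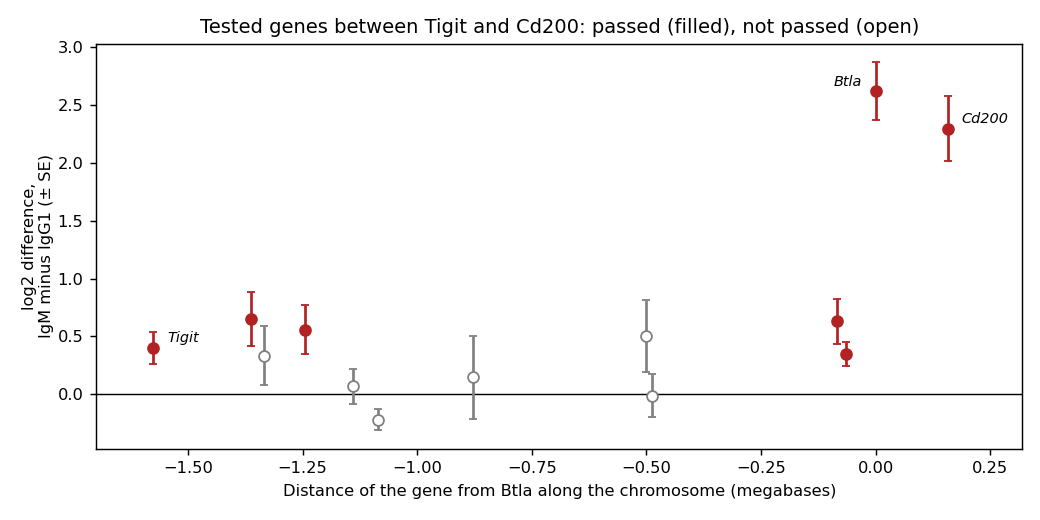
Log2 difference, IgM minus IgG1, with SE (vertical axis) of the 13 tested genes from Tigit to Cd200 against their distance from Btla along the chromosome in megabases (horizontal axis), filled where adjusted p was under 0.05. Btla and Cd200, at the right, stand at 2.62 and 2.30, and the genes to their left range from -0.22 to 0.65.

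Genes with the profile over the 10 libraries most like that of a receptor were taken for the 3 widest differences. Likeness was the root mean square distance between log2(FPKM + 1) profiles, each centred on its mean over both groups. Such profiles keep the difference between the groups, so genes with a like difference come out near by construction. A small distance therefore does not show that a gene and a receptor vary together within a group. For Btla the nearest genes were Bcl2l11 at 0.37, the membrane protein gene Gpr155 at 0.38 and the adaptor gene Samsn1 at 0.40. Bcl2l11 encodes the pro-death protein Bim. For Fcmr they were Il2rb, the interleukin 2 receptor beta chain, at 0.25, the cyclin gene Ccnl2 at 0.28 and the splicing kinase gene Clk4 at 0.28. For Cd200 they were the noncoding RNA Neat1 at 0.34, the kinase gene Srpk3 at 0.34 and Leng8 at 0.36. Srpk3 averaged 5.22 FPKM in IgM libraries, against 0.399 FPKM in IgG1 libraries, and so entered the test through its IgM level. Il2rb averaged 12.8 ± 2.25 FPKM in IgM libraries, against 3.18 ± 0.636 FPKM in IgG1 libraries (SD, n = 5 each).

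Among the signalling partners of inhibitory receptors, SHP-1 was higher in IgM cells while SHIP-1 did not pass. Of 14 listed effectors 13 were tested, with 3 higher and 1 lower in IgM and a median log2 difference of 0.10, beside 20.2% and 18.1% of all tested genes. Ptpn6 (SHP-1) was at 41.4, 39.3, 48.6, 59.0 and 52.4 FPKM in IgM replicates 1 to 5, against 13.7, 15.9, 15.7, 18.3 and 16.9 FPKM in IgG1 replicates 1 to 5, with no overlap (log2 difference 1.51, SE 0.12, limma adjusted p = 2.88e-08). Lyn, the kinase that phosphorylates ITIMs, averaged 17.1 ± 1.54 FPKM in IgM libraries, against 10.4 ± 2.32 FPKM in IgG1 libraries (SD, n = 5 each; log2 difference 0.68, adjusted p = 0.00114), and the groups overlapped at IgG1 replicate 1. Rasa1, a RAS GTPase-activating protein gene, averaged 10.7 ± 2.24 FPKM in IgM libraries, against 5.28 ± 1.43 FPKM in IgG1 libraries (log2 difference 0.91, adjusted p = 9.34e-04). Dok3, an adaptor that works with SHIP-1, averaged 24.1 ± 1.71 FPKM in IgM libraries, against 31.2 ± 3.39 FPKM in IgG1 libraries (log2 difference -0.36, adjusted p = 0.0100). The call of Dok3 ended after correction for the length and GC content of transcripts (log2 difference -0.09, adjusted p = 0.544) and without IgG1 replicates 4 and 5 together (adjusted p = 0.0516). Inpp5d (SHIP-1) averaged 25.1 ± 3.04 FPKM in IgM libraries, against 24.3 ± 1.51 FPKM in IgG1 libraries (log2 difference 0.04, SE 0.11, adjusted p = 0.814), and Ptpn11 (SHP-2) had a log2 difference of -0.44 (SE 0.19, adjusted p = 0.0748).

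Other inhibitory receptors were mostly too low to test. Of 25 listed genes 24 had a row and 8 were tested, with 2 higher and 1 lower in IgM and a median log2 difference of 0.28. That share is close to the 38.3% of all tested genes that passed. Ctla4, an inhibitory receptor of T cells, was at 12.3, 8.55, 12.8, 16.4 and 10.9 FPKM in IgM replicates 1 to 5, against 1.32, 5.23, 4.87, 4.02 and 5.80 FPKM in IgG1 replicates 1 to 5, with no overlap (log2 difference 1.39, SE 0.26, limma adjusted p = 3.72e-04). Cd72, an ITIM-bearing lectin of B cells, ranged from 0.672 to 4.80 FPKM in IgM and from 0 to 0.934 FPKM in IgG1 cells, with overlap (log2 difference 1.53, SE 0.33, adjusted p = 0.00124). It entered the test through its IgM level, and its log2 difference moved to 3.82 with a pseudocount of 0.1 and to 0.53 with 5. Vsir, which encodes VISTA, was lower in IgM cells, at 38.1 ± 6.66 FPKM against 47.7 ± 5.00 FPKM in IgG1 cells (SD, n = 5 each; log2 difference -0.33, adjusted p = 0.0269). Its call ended under 9 of 23 alternatives, among them leaving out any of IgM replicates 2 and 3 and IgG1 replicates 1, 3 and 5 (adjusted p = 0.0545 to 0.0709). Cd22, the sialic acid-binding relative of Siglecg on B cells, averaged 0.50 FPKM in IgM libraries, against 0.299 FPKM in IgG1 libraries, and Cd5 was listed at 0 in every library.

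Among other Fc receptor genes, Fcrla was the one that passed. Of 13 listed genes 3 were tested, with 1 higher and 0 lower in IgM and a median log2 difference of 0.42, where 38.3% of all tested genes passed. Fcrla, an Fc receptor-like protein that stays inside B cells, averaged 211 ± 23.1 FPKM in IgM libraries, against 149 ± 9.80 FPKM in IgG1 libraries (SD, n = 5 each), with no overlap (log2 difference 0.50, SE 0.07, limma adjusted p = 2.97e-05). Trim21, a cytosolic antibody receptor, had a log2 difference of -0.12 (adjusted p = 0.655), and Fcer1g, the signalling gamma chain, one of 0.42 (SE 0.33, adjusted p = 0.347). Fcer2a, the IgE receptor CD23 of mature B cells, averaged 1.52 FPKM in IgM libraries, against 0.348 FPKM in IgG1 libraries and was under the mean needed for the test.

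Of 20 listed ligands and partners of the receptors 5 were tested, with 2 higher and 0 lower in IgM and a median log2 difference of 0.30, again near the 38.3% over all tested genes. B2m, the light chain of the MHC class I molecules that Pirb binds, averaged 3731 ± 214 FPKM in IgM libraries, against 2557 ± 314 FPKM in IgG1 libraries (SD, n = 5 each; log2 difference 0.55, SE 0.08, limma adjusted p = 2.42e-04). The heavy chain gene H2-K1 had a log2 difference of 0.30 (adjusted p = 7.12e-05), which became 0.01 under quantile normalization (adjusted p = 0.904), and H2-D1 one of 0.002 (adjusted p = 0.979). Pvr, the ligand of TIGIT, averaged 2.84 FPKM in IgM libraries, against 2.61 FPKM in IgG1 libraries (log2 difference 0.09, adjusted p = 0.795).

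**Figure D4:**
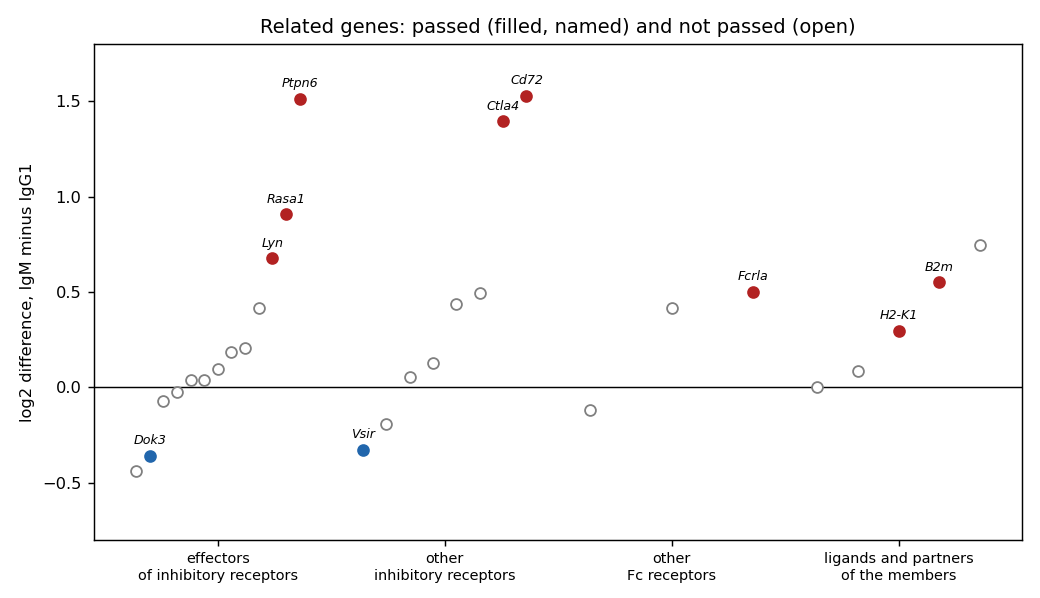
Log2 difference, IgM minus IgG1 (vertical axis), of the tested genes in 4 related lists, filled and named where adjusted p was under 0.05 (red higher and blue lower in IgM) and open otherwise. Cd72, which entered the test through its IgM level, Ptpn6 and Ctla4 stand at 1.53, 1.51 and 1.39, and Dok3 and Vsir lie below 0.

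**Figure D5:**
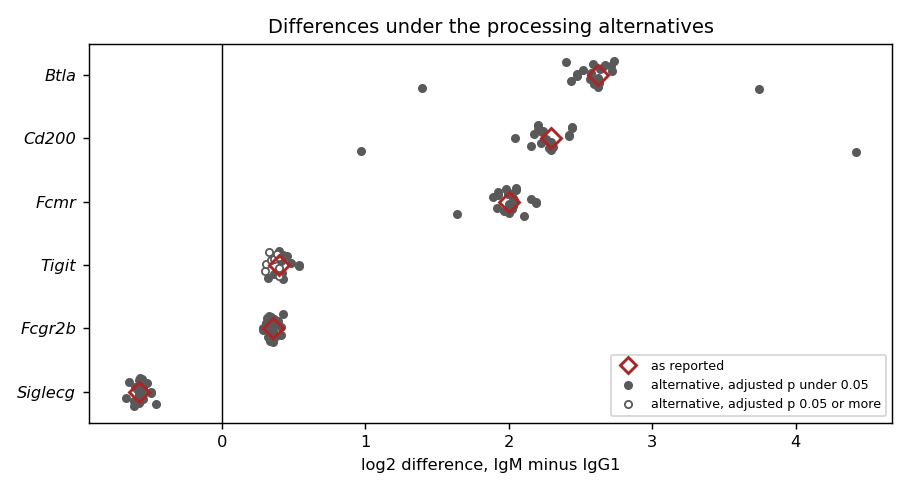
Log2 difference, IgM minus IgG1 (horizontal axis), of the 6 tested receptor genes as reported (diamonds) and under up to 23 processing alternatives each (circles, filled where adjusted p was under 0.05). No circle crosses 0 for any of the 6 genes, the outlying circles of Btla and Cd200 are the pseudocounts of 0.1 and 5, and open circles occur for Tigit only.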

How the data were processed

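The 10 RNA libraries were grouped by their titles. Per the labels' protocols, RNA came from a miRNeasy Micro extraction and libraries from the SMART-Seq mRNA HT LP kit. HISAT2 2.1.0, Cufflinks 2.2.1, Cuffdiff and GRCm38 are named in the submitters' processing notes; settings: not given in the sources used here. The authors deposited FPKM per Ensembl gene for each library, per the file headers, without naming a further normalization. Because values are relative to a library's total, abundant immunoglobulin transcripts lower all others. No pair of files was identical.

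Of 47719 identifiers, 47305 matched GENCODE M21. Genes averaging 1 FPKM or more were tested on log2(FPKM + 1) with limma 3.58.1 in R 4.3.3 (trend and robust, group as the only term, two-sided, Benjamini-Hochberg over all 9900 genes at 0.05). In simulated data for IgM against IgG1, drawn for 9900 genes, 46% of 50 genes changed 1.5-fold were recovered. Recovery was 74% of 50 genes changed 2-fold and 96% of 50 genes changed 4-fold, with 8 false calls. Far fewer genes were changed there than the 38.3% that passed in the data, so these shares need not carry over. Depth assumed a mean fragment of 200 bases, and 67.1% to 78.1% of low values came within 0.1 of a whole fragment. Tables were made with Python 3.11.15 (pandas 2.3.3, numpy 2.4.6), figures with matplotlib 3.10.9.

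All receptors are named, with up to 4 genes a related list by smallest p (others are named after their values were seen). Members, lists and tests were chosen with earlier results of these data known. Alternatives covered pseudocounts, filters, scaling, variance models, a replicate block, length and GC trends, and libraries left out. No library was left out of the reported tests, and the labels give no batch.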

Additional observations from a re-analysis of the deposited data

Results flagged for a closer look

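Among 56 groups of 5 libraries examined for the genes named, 6 held a library whose gap to its neighbour was more than 0.71 of the group's range. Chance gives about 5% of groups where values are normally distributed. Groups mostly at or near 0, as for Pirb, Cd300a and Cd72, pass that mark more easily, so the 2 shares cannot be compared. Pirb reached 0.0213 FPKM in IgG1 replicate 2, where the other 4 were at 0. Cd300a reached 0.272 FPKM in IgM replicate 5, where the next was 0.0624 FPKM, and 0.314 FPKM in IgG1 replicate 2, where the next was 0.0419 FPKM. Cd72 stood at 0.934 FPKM in IgG1 replicate 3 and at or near 0 in the other 4. H2-K1 stood at 1426 FPKM in IgM replicate 3, where the next was 1297 FPKM. Lyn stood at 14.4 FPKM in IgG1 replicate 1, where the next was 10.4 FPKM.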

How the results depend on the processing

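Of the 6 tested receptors, Fcmr, Fcgr2b, Btla, Cd200 and Siglecg kept their direction and an adjusted p under 0.05 under each of the 23 alternatives that tested them; a mean of at least 5 FPKM leaves Cd200 out. Tigit kept its direction but missed the threshold without a filter (log2 difference 0.40, adjusted p = 0.101), under quantile normalization (0.30, adjusted p = 0.105), with the replicate number as a block (0.40, adjusted p = 0.0579) and without IgG1 replicates 4 and 5 (0.31, adjusted p = 0.152); leaving out 1 library gave 0.33 to 0.48. The cause was not tested. For the other receptors, leaving out 1 library gave log2 differences of 1.89 to 2.15 for Fcmr, 0.31 to 0.42 for Fcgr2b, 2.40 to 2.73 for Btla, 2.18 to 2.44 for Cd200 and -0.65 to -0.52 for Siglecg. Receptors that passed numbered 5 to 6, and all genes that passed 3428 to 3578, beside 3792 with all libraries. In the related lists, leaving out 1 library gave 1 to 2 other Fc receptors in place of 1. With the replicate block and length and GC trends removed, 4 ligands and partners passed in place of 2. Deviations of same-numbered libraries correlated at -0.0357 to 0.0966 over genes. Differently numbered libraries were not compared, so these values cannot show whether the numbers mark shared animals or days. The block gave 3701 calls. Quantile normalization moved the median log2 difference of all genes to -0.06, where it was 0.05, and the split to 1510 higher and 2182 lower in IgM, where it was 2001 and 1791. Without a filter 2818 of 24060 genes passed. Lair1, Pirb and Cd300a have no reported test, since their means were under 1 FPKM.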
